A study of Mus musculus with 2 samples.

Results

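The genes described here encode synaptotagmins and the other proteins through which calcium and Rab GTPases act on membrane fusion. They were found by name, as probe sets with a single annotated symbol of the synaptotagmin (Syt), synaptotagmin-like (Sytl), extended synaptotagmin (Esyt), complexin (Cplx), RIM (Rims), Munc13 (Unc13a to Unc13d), DOC2, ferlin (Dysf, Myof, Otof) or CAPS (Cadps, Cadps2) families, or of rabphilin (Rph3a). The rule found 42 genes with 80 probe sets, of 18193 named genes and 45037 probe sets in all. The rule uses names and no measured value. Intensity was measured on 2 Affymetrix mouse 430 2.0 arrays, called set 1 and set 2 as in their titles. Both hold RNA of 5cc7 T cells, which carry a receptor for a moth cytochrome c peptide, as blasts on day 5 after stimulation with that peptide in culture. Strain, sex, age and the number of animals or cultures are not given in the labels. The arrays form 1 group with no resting or untreated control, so no comparison between conditions and no test was possible, and the spread between the arrays may be technical.

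Synaptotagmins carry a pair of C2 domains, modules that in many of them bind calcium and acidic lipids and act on SNARE proteins, the coiled proteins that pull a vesicle and its target membrane together. Munc13 proteins prime vesicles for that step, complexins bind the assembled SNAREs, and synaptotagmin-like proteins tether vesicles that carry Rab27. The families are best known from neurons, but killer T cells depend on Munc13-4 and Rab27a to release lytic granules, and helper T cells send cytokine vesicles toward the cell that they contact.

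Of the 42 genes, 8 (19.0%) were above background, against 45.5% of all named genes. Above background means that at least 1 probe set exceeded, on both arrays, a bound of 55.2 on set 1 and 64.5 on set 2, which was the 95th percentile of probe sets for genes of liver, eye, pancreas and kidney. The 8 genes were Esyt1, Esyt2, Sytl1, Sytl2, Unc13d, Syt11, Cplx1 and Cplx2. By probe set, 15 of 80 (18.8%) exceeded the bound on both arrays, against 36.1% of all probe sets. The median probe set intensity, as the mean of the 2 arrays, was 22.2 for the members and 42.9 for all named genes. Members and named genes had nearly the same number of probe sets per gene, 1.90 and 1.92. Probes differ in how brightly they report a transcript, so these values show which genes stood above the bound and do not rank the genes by abundance.

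**Figure D1:**
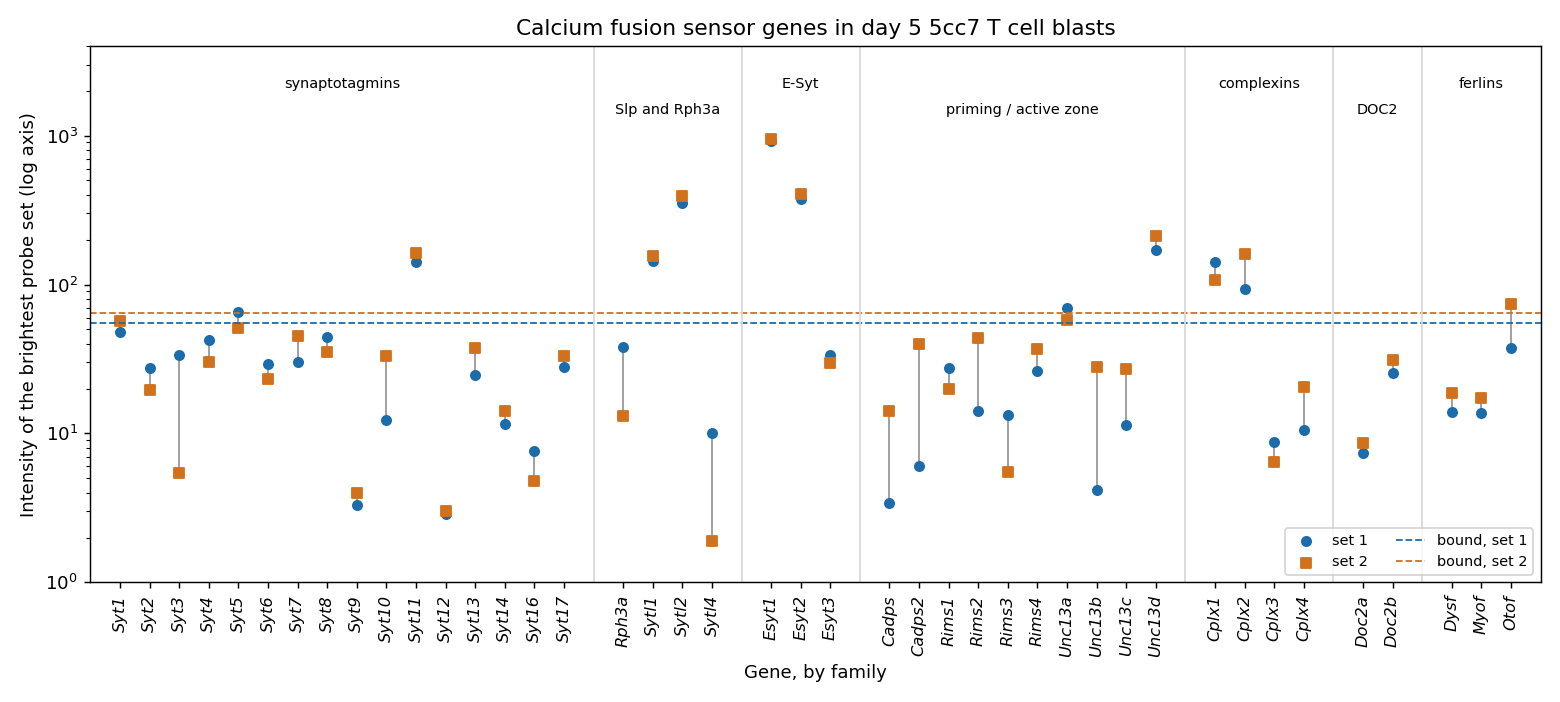
Intensity of the brightest probe set of each of the 42 genes on set 1 (circles) and set 2 (squares), on a log axis, with the genes grouped by family. Dashed lines mark the bounds of 55.2 and 64.5, and 8 genes lie above both, with Esyt1 at 921.5 and 946.5.

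The bound separates weakly above it. In a second list of genes of other organs, 6 of 44 (13.6%) were above background, and the brightest of these, the thyroid gene Tg, was at 432. Of the 8 member genes above background, only Esyt1 read higher than Tg. In the list that set the bound, the brightest gene was at 128.5, higher than Cplx1 and Cplx2. The T cell markers were above background in 9 of 9 cases, with Cd3e, a chain of the receptor complex, at 1398 ± 46.7, Cd4 at 1119 ± 95.2 and the phosphatase gene Ptprc at 4892 ± 207 (mean ± SD of the 2 arrays, n = 2, here and below). The neuron markers were above background in 0 of 17 cases, and their brightest probe sets lay between 1.30 and 60.7. Among other cell types, 5 of 7 B cell markers were above background, and Pax5 and Ebf1 were not. Their means were 377 for Ms4a1, 221 for Cd22, 165 for Cd79b, 108 for Cd79a and 75.4 for Blk. The count was 1 of 13 for macrophages and dendritic cells (Csf1r, 102), 1 of 12 for mast cells and granulocytes (Kit, 494) and 1 of 5 for platelets (Itga2b, 80.4). It was 2 of 9 for fibroblasts and endothelium (Col1a2, 63.3, and Kdr, 66.95) and 0 of 9 for muscle. For CD8 T cells and NK cells it was 2 of 6 (Cd8a, 66.45, and Cd8b1, 213). Kit thus read higher than every member gene except Esyt1. The part of other cell types in the values below was not tested, and in RNA of a whole culture a few cells with much transcript cannot be told apart from many cells with little.

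Promoter windows were available in RefSeq (GRCm38.p6) for 28 of the 42 genes, as the 250 bases before the annotated start. Sytl2 and Unc13d, both above background, had none. For a gene with several windows, member or not, the window with the most CG pairs was used, which raises its count. Their number of CG pairs is given because promoters rich in CG pairs are common among broadly transcribed genes. Over all named genes with a window, those above background had a median of 18 CG pairs (n = 6791) and those not above background 8 (n = 7661). The members did not show that order of medians. The 6 members above background with a window had a median of 10 CG pairs, and the 22 not above background had 13. Several members that read low had among the most CG pairs, with 44 for Cadps2, 40 for Syt9, 32 for Syt10, and 30 each for Syt2 and Syt16. The windows below show Esyt1, the member with the highest intensity, Syt11, above background in all of its probe sets, and Cadps2, which has the most CG pairs but read 6.0 and 39.9. CG pairs are in capitals, and each window lies on the minus strand and is written 5′ to 3′.
Esyt1, chr10:128525860-128526109, 11 CG pairs: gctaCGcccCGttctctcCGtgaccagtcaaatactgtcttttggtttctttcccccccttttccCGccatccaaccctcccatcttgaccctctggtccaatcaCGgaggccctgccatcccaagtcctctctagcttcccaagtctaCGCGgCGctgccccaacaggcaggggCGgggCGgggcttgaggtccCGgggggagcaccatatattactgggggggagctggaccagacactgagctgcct
Syt11, chr3:88772600-88772849, 9 CG pairs: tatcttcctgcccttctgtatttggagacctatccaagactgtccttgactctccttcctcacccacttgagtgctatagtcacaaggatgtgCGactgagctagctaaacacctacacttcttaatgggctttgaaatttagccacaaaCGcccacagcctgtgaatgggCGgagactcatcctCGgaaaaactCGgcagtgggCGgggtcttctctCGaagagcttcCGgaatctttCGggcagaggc
Cadps2, chr6:23839422-23839671, 44 CG pairs: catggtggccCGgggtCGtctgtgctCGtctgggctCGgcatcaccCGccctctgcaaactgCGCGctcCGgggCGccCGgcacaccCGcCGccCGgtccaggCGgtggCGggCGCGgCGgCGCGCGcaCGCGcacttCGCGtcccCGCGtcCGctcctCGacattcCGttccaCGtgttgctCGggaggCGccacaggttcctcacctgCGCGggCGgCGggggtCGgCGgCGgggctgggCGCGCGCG

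Letters searched on both strands, CCGGAA for ETS factors, TGTGGT for RUNX factors and TATAAA for a TATA box, were in 12.03%, 14.0% and 12.4% of all 32851 windows. Counted once per gene, as for the members, the shares were 26.6%, 10.7% and 5.35% of named genes above background and 10.7%, 11.8% and 11.3% of those not above background. Among the 6 members above background, CCGGAA was in the window of Syt11 and TGTGGT in that of Sytl1, and TATAAA was in 0. Among the 22 others the counts were 2, 3 and 0. These are matches of letters and not sites shown to be bound, and the start used in these cells was not measured.

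Among the synaptotagmins proper, 1 of 16 genes was above background. This was Syt11, a family member regarded as a poor calcium binder, which is known from membrane traffic in neurons and macrophages. Its brightest probe set read 142.5 on set 1 and 161.7 on set 2 (152 ± 13.6). The other 4 read 101.6 and 177.9, 111.7 and 121.9, 103.7 and 89.9, and 88.8 and 95.8. All 5 probe sets thus exceeded the bound on both arrays. The other genes above background had at most 3 probe sets each, and Rims2, also with 5, had all of them under both bounds.

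The fast calcium sensors of nerve terminals were not above background. Syt1, the sensor of synchronous transmitter release, read 48.0 and 57.2 in its brightest probe set, under the bound on both arrays. Its other 3 probe sets read 21.1 and 22.3, 19.5 and 32.8, and 1.4 and 6.2. The closely related Syt2 read 27.6 and 19.6. Syt7, a sensor with high calcium affinity implicated in lysosome exocytosis, read 30.1 and 45.0, and its other 3 probe sets lay between 3.0 and 34.0. Syt5 exceeded the bound on set 1 alone, at 65.8 and 51.0, so its call differed between the arrays. Syt4, the closest relative of Syt11, read 42.5 and 30.1, and Syt8 read 44.1 and 35.4. Each of these 2 genes stayed under both bounds. The other 9 genes, Syt3, Syt6, Syt9, Syt10, Syt12, Syt13, Syt14, Syt16 and Syt17, had means between 2.95 and 30.9.

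Of the synaptotagmin-like genes and rabphilin, 2 of 4 were above background. Sytl2, whose protein Slp2 binds Rab27 and phospholipids of the plasma membrane, read 352.8 and 395.6 (374 ± 30.3). Sytl1, which encodes the Rab27 effector Slp1, read 144.0 and 156.3 (150.2 ± 8.70). Both genes had 1 probe set, and in both the arrays lay close together and over the bound. The off-tissue gene Tg, at 432, read higher than either. Sytl4, which encodes granuphilin of insulin granules, read 10 and 1.9, and its second probe set 4.5 and 4.9. Rph3a, a Rab3 and Rab27 effector of synaptic vesicles, read 37.9 and 13.0. Neither gene was above background, and each differed over 2-fold between the arrays at these low readings. Sytl3, measured only by probe sets that carry several symbols, and Syt15 and Sytl5 were not analysed here.

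Rab27a, the GTPase that recruits these effectors to granules, was above background at 226 ± 18.0, with 2 of 4 probe sets over the bound. Rab27b was not, at 51.1 and 64.5, just under the bound on both arrays. Rab3a and Rab3d, of the Rab family that serves regulated secretion, were above background at 377 ± 7.64 and 80.05 ± 4.17. For Rab3a 1 of 2 probe sets was over the bound, and the other had a mean of 18.3. The name of the one over the bound ends in x_at, and without s_at and x_at probe sets Rab3a was not above background. For Rab3d 2 of 4 probe sets were over the bound. In all, 4 of 11 genes of the Rab3 and Rab27 list were above background, with Rab37 as the fourth, and the Rab27 effectors Mlph, Myrip and Exph5 were not, with means between 6.90 and 26.6.

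Of the priming and active zone genes, 1 of 10 was above background. This was Unc13d, which encodes Munc13-4, the Munc13 of blood cells that primes lytic granules and whose loss in humans causes familial hemophagocytic lymphohistiocytosis. It read 171.4 and 212.7 (192 ± 29.2) in its 1 probe set, at 3.11 and 3.30 times the bound of each array. The off-tissue gene Tg, at 432, read higher. Unc13a, the main neuronal Munc13, read 69.6 and 57.5 and exceeded the bound on set 1 alone. Unc13b and Unc13c, the other neuronal forms, read 4.2 and 28.0, and 11.4 and 27.2. Of the 4 Munc13 genes, Unc13d was therefore the 1 above background.

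CAPS proteins prime dense-core vesicles of neurons and endocrine cells. Cadps read 3.4 and 14.1 and Cadps2 6.0 and 39.9. RIM proteins hold vesicles and calcium channels together at the active zone. Rims1 read 27.6 and 19.8, and the brightest of the 5 probe sets of Rims2 read 14.2 and 43.8. Rims3 and Rims4 read 13.3 and 5.5, and 26.2 and 36.7. None of these 6 genes exceeded the bound on either array. In the list of other presynaptic genes, 6 of 16 were above background, with means of at most 104. The scaffold genes Bsn and Pclo, which shape the active zone of neurons, were not among them, at 36.7 ± 7.35 and 16.4 ± 1.63.

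Of the extended synaptotagmins, 2 of 3 were above background. These proteins sit in the endoplasmic reticulum, reach to the plasma membrane and move lipids between the membranes, and Esyt1 is the form that responds to raised calcium. Esyt1 read 921.5 and 946.5 (934 ± 17.7), and its second probe set read 76.2 and 71.4, still over the bound on both arrays. Esyt2 read 377.2 and 406.6 (392 ± 20.8), but its second probe set read 37.9 and 40.8, under the bound. Esyt3 read 33.4 and 29.6. The probe sets of Esyt1 and of Esyt2 thus differed far more from each other than the arrays did. Of 9 other genes for tethers and lipid carriers of such contact sites, 7 were above background, including Vapa at 852.5 ± 28.4 and Vapb at 139.6 ± 5.94, which encode anchor proteins of the endoplasmic reticulum.

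Complexins are small proteins that clamp and help the SNARE complex, and Cplx1 and Cplx2 are abundant in brain. Both were above background and Cplx3 and Cplx4, the complexins of retinal ribbon synapses, were not, at 8.7 and 6.4, and 10.6 and 20.5. Cplx1 read 140.6 and 107.9 (124 ± 23.1), then 101.0 and 83.1, then 22.5 and 7.0 in its 3 probe sets. The first and the second exceeded the bound on both arrays, the third on neither. Cplx2 read 94.0 and 161.0 (127.5 ± 47.4), then 59.1 and 155.1, then 23.3 and 50.0. The first and the second again exceeded the bound on both arrays, the second by a small margin on set 1. All 3 probe sets of Cplx1 were lower on set 2, and all 3 of Cplx2 were higher there.

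**Figure D2:**
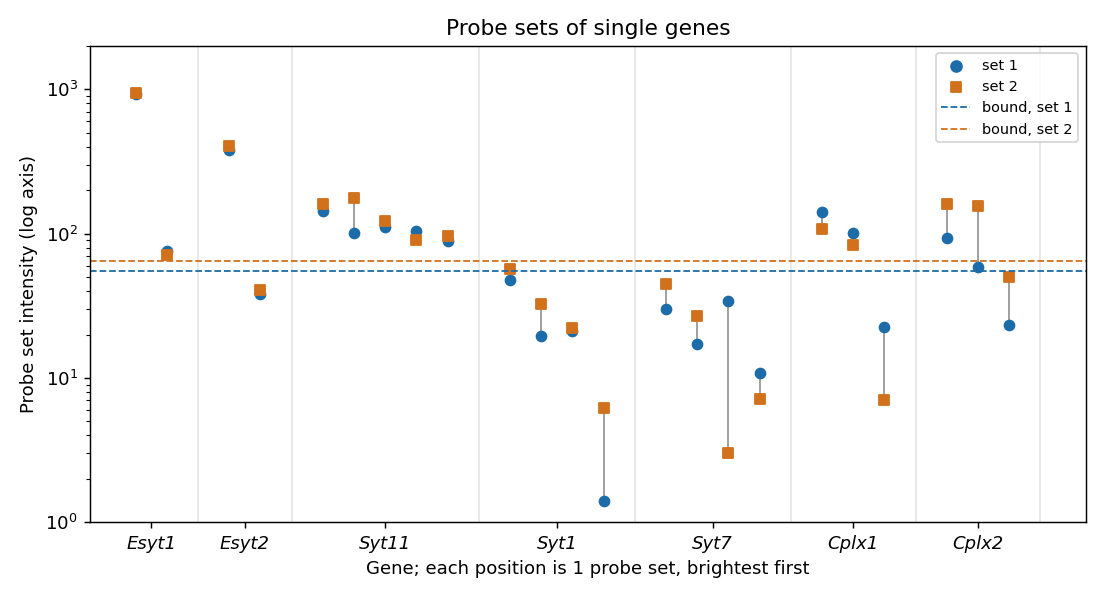
Intensity of every probe set of 7 genes with several probe sets, on set 1 (circles) and set 2 (squares), on a log axis, brightest first within each gene. All 5 probe sets of Syt11 lie above both bounds, the lower probe sets of Esyt2, Cplx1 and Cplx2 lie below them, and all 3 probe sets of Cplx2 are higher on set 2.

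The 2 DOC2 genes, whose proteins sense low calcium in spontaneous transmitter release, were not above background. Doc2a read 7.4 and 8.6, and Doc2b 25.5 and 31.0. Ferlins are large proteins with many C2 domains, known from membrane repair in muscle (Dysf, Myof) and from release at hair cell synapses (Otof). Dysf read 13.9 and 18.6 and Myof 13.8 and 17.4, both far under the bound. Otof read 37.7 and 74.0 and exceeded the bound on set 2 alone.

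The genes listed as partners of the members, general calcium sensors among them, were above background more broadly. Of 90 partner genes in 7 lists, 61 (67.8%) exceeded the bound, beside the 45.5% of all named genes. The lists were chosen with earlier results of these data known, so this share describes the listed genes only. The partners had more probe sets per gene, 2.31 against 1.92, and so more chances to be called. With the median over the probe sets of a gene, 51 (56.7%) were above background, against 38.3% of all named genes. In the SNARE list the count was 20 of 23. Snap23, the widely expressed plasma membrane SNARE, was at 168 ± 12.4, whereas its neuronal relative Snap25 read 13.0 and 3.6. Stx11 and Stx4a, syntaxins of the plasma membrane, were at 212.5 ± 21.9 and 196 ± 32.3. The neuronal Stx1a was at 78.2 ± 5.16 with 1 of its 2 probe sets over the bound. That probe set was of the x_at kind, and without s_at and x_at probe sets Stx1a was not above background. The vesicle SNAREs Vamp8, Vamp7 and Vamp2 were at 726 ± 46.7, 178 ± 14.6 and 171 ± 13.7. Of their probe sets, 1 of 1, 2 of 2 and 1 of 2 were over the bound. Stxbp2, which encodes the Munc18 partner of Stx11, was at 248 ± 32.5 with 3 of 3 probe sets over the bound, in a list with 6 of 9 genes above background.

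In the list of membrane repair genes and ferlin partners, which holds calcium-binding proteins and others, 14 of 17 were above background, beside 0 of 3 ferlins. Anxa2 and Anxa6, annexins that bind membranes when calcium rises, were at 1700.0 ± 111 and 1096 ± 41.9, with 1 of 3 and 4 of 4 probe sets over the bound. S100a10, the partner of annexin A2, was at 4063 ± 172, and Ahnak, a giant scaffold that binds both it and dysferlin, at 2061 ± 88.7 with 1 of 4 probe sets over the bound. Trim72, the repair protein of muscle, was not above background at 6.30 ± 0.141. Of 5 general calcium sensors 4 were above background (S100a4, Sri, Stim1 and Stim2), and Ncs1, a neuronal sensor, was not.

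**Figure D3:**
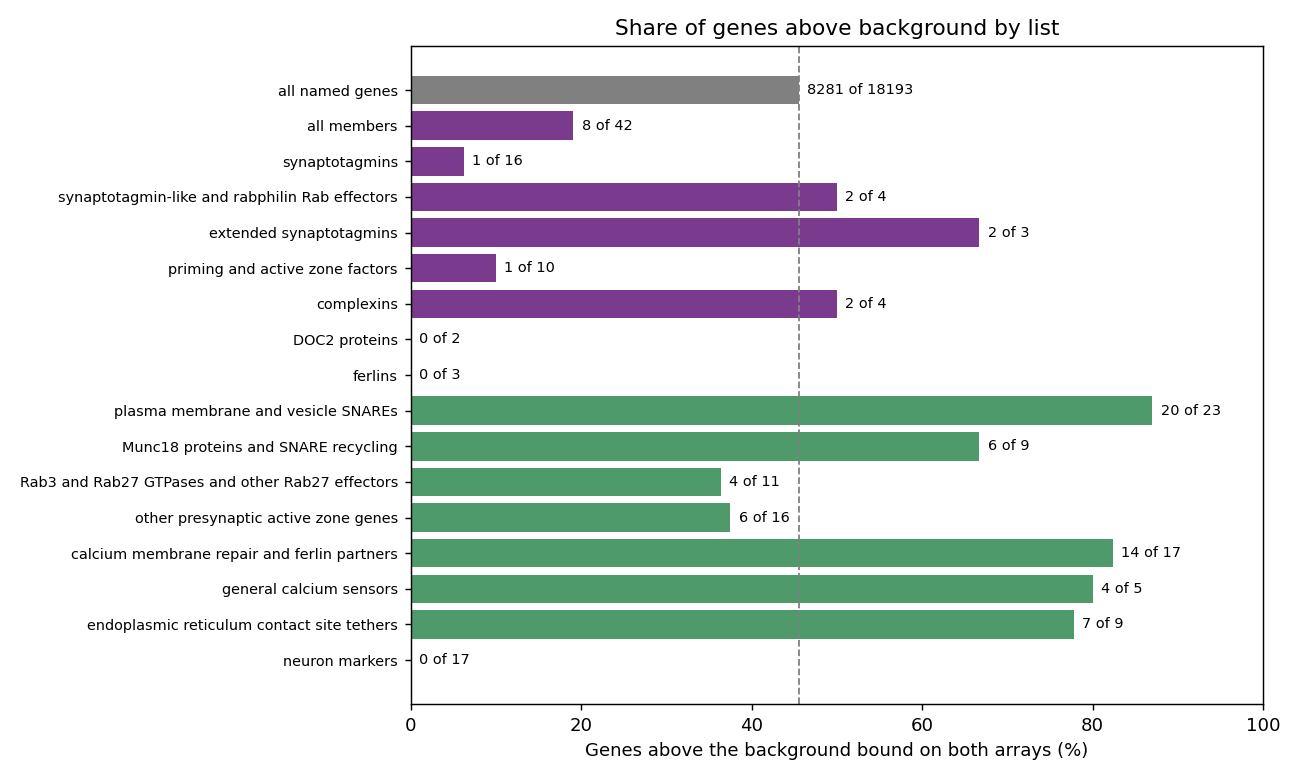
Share of genes above the bound on both arrays, in percent, for all named genes (grey), the members and their families (purple), the partner lists (green) and the neuron markers, with counts beside the bars and a dashed line at 45.5%. The members stand at 8 of 42, the SNARE list at 20 of 23 and the neuron markers at 0 of 17. The lists were chosen with earlier results of these data known.

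Between the arrays, the widest differences among members above the bound belonged to probe sets of Cplx2 and Syt11. Each difference is the log2 intensity on set 2 minus that on set 1, centred on the median difference of all probe sets above the bound. Over the 15 member probe sets the median difference was 0.09 and the SD 0.46, and over all 16268 probe sets above the bound the SD was 0.24. The comparison was not matched for intensity, and the spread was wider among dim probe sets, with an SD of 1.06 over all those not above the bound. Of the 15, which come from 8 genes and include 5 probe sets of Syt11, 11 were higher on set 2 and 4 on set 1, where the centring splits all probe sets above the bound into 8134 and 8134. A difference over 2-fold was found for 1 of the 15, a Cplx2 probe set with a log2 difference of 1.36, and for 0.184% of all probe sets above the bound. Among those 16268, 7 had a difference as high as this one. The brightest Cplx2 probe set differed by 0.75. Without Cplx2 the SD over the other 13 was 0.30, and the widest of these differences, 0.78, belonged to a probe set of Syt11. The summed intensity of the brightest probe sets of the macrophage and dendritic cell markers was 338 on set 1 and 522 on set 2, with Csf1r, the 1 of 13 above background, at 57.3 and 146.7. The sums were 168.5 and 216.5 for platelets, 763 and 869 for mast cells and granulocytes, 307 and 366 for CD8 T cells and NK cells, 1047 and 1031 for B cells, 444 and 448 for neurons, 243.5 and 225 for muscle, and 319 and 313 for fibroblasts and endothelium. For the T cell markers they were 23253 and 21962. Outside the T cell and B cell lists, most of these markers were not above background, and single readings under the bound were unstable. The part of other cells in the Cplx2 difference was not tested.

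Below the bound the readings of single members were unstable. Of the 65 member probe sets not above the bound, 24 differed over 2-fold, 12 in each direction, and the SD of the log2 difference was 1.29. Of all 28769 probe sets not above the bound, 7475 differed over 2-fold, and the SD was 1.06. The readings of genes such as Syt3 (33.8 and 5.4) or Unc13b (4.2 and 28.0) therefore give no level beyond being under the bound.

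**Figure D4:**
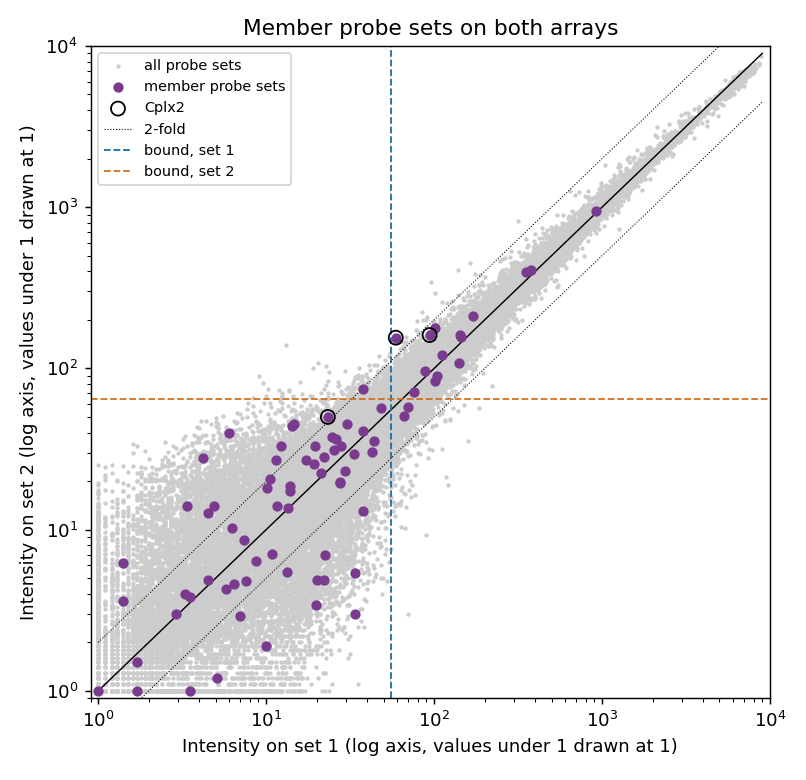
Intensity on set 1 against set 2 for all probe sets (grey) and the 80 member probe sets (purple), both on log axes, with the line of equality, lines at 2-fold and the bounds dashed. Most member probe sets lie in the scattered region under both bounds, and the ringed Cplx2 probe sets lie above the line of equality.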

How the data were processed

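Per the design text, complementary RNA was hybridised to 2 Affymetrix mouse 430 2.0 arrays. The authors deposited 1 linear intensity value per probe set and array; the range of 0 to 8860.2 shows a linear scale, and their background correction, probe summary and scaling method is not given in the sources used here. Array medians were 36.4 and 37.9. The 64 control probe sets were left out. Symbols are those of GEO's annotation table for the array; RefSeq (GRCm38.p6) matched all 80 member probe sets by Entrez identifier and changed 0 symbols. Probe sets with more than 1 symbol named no gene.

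The bound was the 95th percentile over 69 probe sets of 48 off-tissue genes, per array, and the brightest probe set (by mean) gave the level of a gene. Intensities under 1 were set to 1 before log2. The median shift of 0.03 was subtracted. All 42 member genes were named. Values of every probe set were given for genes above background, and of the brightest probe set for genes within 1.5-fold of a bound or best known in their family. Fixed sets of partners and markers were named, others after their values were seen. The members and lists were chosen with earlier results of these data known. Alternatives changed the bound, arrays, probe sets, floor and scaling. The number of arrays limits the precision. The call and difference steps were run on simulated data whose levels lay far from the bound and whose noise was small. That run checks the code and cannot show how the steps perform near the bound. Python 3.11.15, numpy 2.4.6, pandas 2.3.3 and matplotlib 3.10.9 were used.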

Additional observations from a re-analysis of the deposited data

How the results depend on the processing

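The count of 8 member genes above background was also 8 with a 99th percentile bound or one from the second off-tissue list, with the median over the probe sets of a gene, and without probe sets of the s_at and x_at kinds, and in each of these the same 8 genes were above background. Over all named genes the share was 37.1% with the 99th percentile bound and 39.9% with the second off-tissue list. It was 38.3% with the median over probe sets and 44.3% without s_at and x_at probe sets. The member count was 10 (23.8%) with a 90th percentile bound (adding Syt1 and Unc13a), against 48.9% of all named genes. It was 12 (28.6%) with the bound at the median of all probe sets (adding Otof and Syt5 as well), against 55.4%. The call from set 2 alone gave 9, against 46.9% of all named genes, and from set 1 alone 10, against 49.2%. All 8 genes kept their call in each of these settings. The partner count ranged from 51 to 69 (56.7% to 76.7%), while the share of all named genes ranged from 37.1% to 55.4%. Without s_at and x_at probe sets the partner count was 59, with Rab3a and Stx1a no longer above background. The number of member probe sets over 2-fold between the arrays fell from 1 to 0 under the 99th percentile bound and under that from the second off-tissue list, since the Cplx2 probe set concerned read 59.1 on set 1 and dropped out. It was 25 of 80 with no bound. The median difference ranged from 0.08 to 0.13. Quantile normalization moved the level of none of the 8 genes by more than the SD of its arrays, whereas the median over probe sets moved 4 of them by more, to 504 for Esyt1, 216 for Esyt2, 113 for Syt11 and 92.0 for Cplx1. With 2 arrays of 1 group and no detection calls used, a gene under the bound is not shown to be absent.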
